A study of Mus musculus with 12 samples.

Results

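Liver from male mice that overexpress the transcription factor E4BP4 in the liver was compared with wild-type liver at zeitgeber time (ZT) 2, that is 2 h after lights on. The comparison holds every library of these groups, 3 transgenic (TG) against 3 wild-type (WT), which are 6 of the 12 libraries of the series. The other 6 are the same genotypes at ZT14. The edgeR tests of total, exon and intron reads fitted all 12 libraries together, so the ZT14 libraries also shaped the filter, scaling and spread. Values at ZT14 are given only where a change at ZT2 is set against one at ZT14. All mice were C57BL/6 males of 8 weeks, kept on normal chow with 12 h light and 12 h dark each day. The TG group is described in the labels as carrying liver-specific E4BP4 overexpression, and the promoter that drives the transgene is not given in the sources used here. Polyadenylated RNA was sequenced from whole liver, and each deposited table gives reads per gene, per exon and per intron for 48440 genes. Whether each sample is its own animal is not stated in the labels, and the p-values therefore measure only the spread between these samples, which may be technical.

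E4BP4, encoded by Nfil3, is a basic leucine zipper repressor. It binds the D-box, the same DNA element that the activators DBP, TEF and HLF (the PAR bZIP family) bind, and the balance of activators and repressor changes over the day. In liver the D-box is known as an output arm of the circadian clock that reaches detoxification, bile acid and lipid genes. Reads from spliced exons follow the mature RNA, while reads from introns come largely from unspliced RNA, so exon and intron reads of a gene are given here as separate readouts.

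The libraries held between 16035121 and 22534291 total gene reads, of which 81.2% to 84.3% mapped uniquely, and introns took 8.57% to 9.69% of the unique reads. None of depth, unique share, intron share or number of genes with reads differed between the groups beyond the spread of the libraries (exact permutation test, 2-sided, p = 0.3 to 0.7, n = 3 each). The mitochondrial share was 6.90% in WT and 7.63% in TG (exact permutation test, 2-sided, p = 0.1, the smallest p that 3 against 3 allows). TG replicate 2 stood apart. It lay at 23.6 on the first principal component against -16.2 to 4.31 for the other 5 libraries, and 208 of its genes were 2-fold or more from the other TG libraries, against 84 to 153 in the other libraries. The hepatocyte genes Alb, Apoa1 and Ttr were abundant in all 6 libraries, as the label liver implies. Of 14 markers of exocrine pancreas, the elastase Cela1 alone passed 2 counts per 1000000 reads of TMM-scaled library size (CPM, the unit of all read levels here), and 9 were at 0 in all 6 libraries. Total, exon and intron reads were each scaled by their own library size, so CPM values of different readouts cannot be set against each other.

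At ZT2, 11 of 15244 tested genes differed between TG and WT liver on total gene reads, 0.0722% of those tested, 8 higher and 3 lower in TG (edgeR's quasi-likelihood test, Benjamini-Hochberg adjusted p below 0.05). The higher genes were Gpr137, Ppard, Bad, Unc5b, Unc13b, Efna1, Plcb3 and Chka. The lower genes were Esrra, Trmt112 and Prdx5. The 3 TG libraries lay entirely to one side of the 3 WT libraries in all 11. That separation was also seen in 953 genes with TG higher (6.25% of those tested) and 893 with TG lower (5.86%), so it is not rare by itself. An unadjusted p below 0.05 was reached by 1153 genes (7.56%), 632 higher and 521 lower, and the median log2 fold change over all tested genes was -0.00303. Of the changes called, 9 of the 11 lay between 1.66-fold and 2.40-fold, with Gpr137 at 3.80-fold and Plcb3 at 1.40-fold.

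The targeted gene itself is the check of the labels. Nfil3 counted 48.8, 29.4 and 37.6 CPM in WT and 71.1, 69.8 and 62.6 in TG on total gene reads. Every TG library was above every WT library and the fitted fold was 1.75, but the change of 0.81 on the log2 scale, with an SE of 0.21, did not pass (edgeR, adjusted p = 0.359). Nfil3 did pass on total reads without the filter on low counts (edgeR, adjusted p = 0.0411) and with DESeq2 (adjusted p = 0.0379), and on exon reads with DESeq2 (adjusted p = 0.00725). It passed in no other alternative, that is in 2 of 22 on total reads and 1 of 21 on exon reads. On exon reads alone Nfil3 stood at 56.2, 33.6 and 43.1 CPM in WT and 87.6, 83.8 and 74.2 in TG, which is 0.88 on the log2 scale (SE 0.20; edgeR, adjusted p = 0.242). On intron reads the groups overlapped, with 84.6, 57.7 and 69.7 CPM in WT and 68.7, 96.2 and 96.2 in TG. What the construct holds is not given in the sources used here, and whether its reads count to Nfil3 was not tested. Introns took 13.2% ± 1.86 of the unique reads of Nfil3 in WT and 9.64% ± 2.71 in TG (SD, n = 3 each), and the ranges of the groups overlapped.

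**Figure D1:**
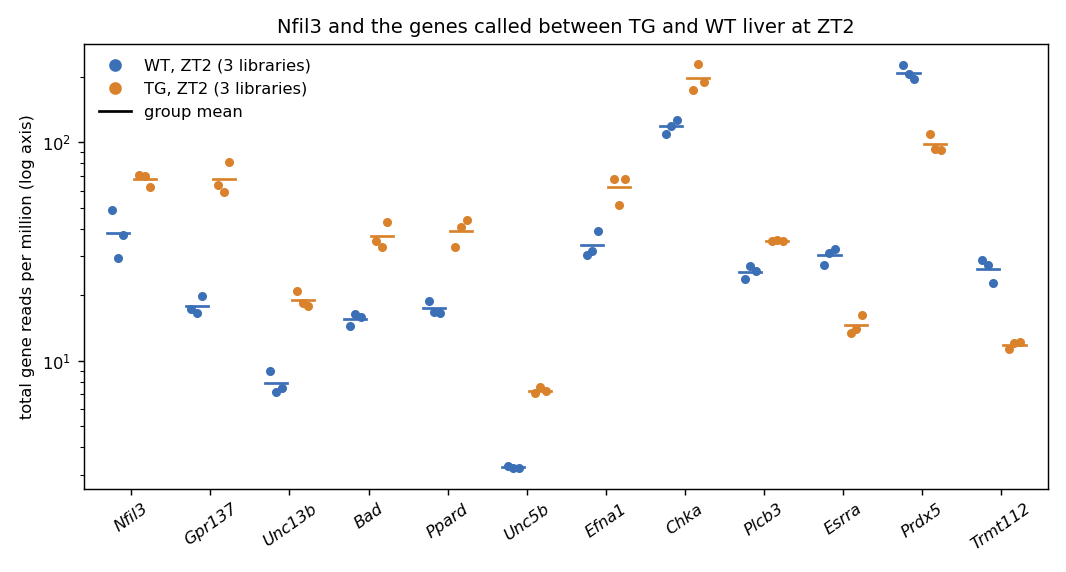
Total gene reads in CPM (log axis) of Nfil3 and the 11 genes called between TG and WT liver at ZT2, each point 1 library and each bar the mean of 3. The TG points of Nfil3 sit between 62.6 and 71.1 CPM, above all 3 WT points, and the 11 called genes show no overlap between the groups.

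Ppard, a nuclear receptor that is activated by fatty acids and drives genes of lipid oxidation, had 18.8, 16.6 and 16.6 CPM in WT and 33.0, 41.0 and 44.2 in TG. It rose 2.27-fold (log2 fold change 1.18, SE 0.11, adjusted p = 0.000815 by edgeR). Its exon reads rose more, from 15.2, 15.0 and 14.9 CPM to 34.1, 42.1 and 44.9 (log2 fold change 1.43, SE 0.10, adjusted p = 5.54e-05 by edgeR). The WT libraries lie close together there and all TG libraries are more than 2-fold above them. Its intron reads overlapped between the groups, with 109, 74.1 and 70.4 CPM in WT and 105, 125 and 138 in TG (log2 fold change 0.54, SE 0.20, adjusted p = 0.374 by edgeR). The exon change exceeded the intron change by 0.88 on the log2 scale (SE 0.21), which did not pass over all genes (adjusted p = 0.289 by edgeR).

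Of the 27 tested PPAR receptors and target genes, Ppard was the 1 called on total reads. Pdk4, a kinase that shuts pyruvate dehydrogenase and a known PPAR target, had 5.17, 8.10 and 6.36 CPM in WT and 13.6, 10.5 and 24.8 in TG, without overlap (log2 fold change 1.33, SE 0.32, adjusted p = 0.343 by edgeR). The list as a whole had a median log2 fold change of -0.0442, with 12 of 27 above 0.

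Unc5b, a netrin receptor of endothelial and neural guidance, had 3.29, 3.23 and 3.21 CPM in WT and 7.10, 7.53 and 7.22 in TG. It rose 2.24-fold, with less than 0.5 CPM between the libraries of either group (log2 fold change 1.17, SE 0.15, adjusted p = 0.00766 by edgeR). Efna1, a membrane-bound ligand of Eph receptors, had 30.6, 31.8 and 39.1 CPM in WT and 68.3, 51.9 and 67.8 in TG, and rose 1.85-fold (log2 fold change 0.89, SE 0.12, adjusted p = 0.0145 by edgeR). On exon reads alone Efna1 missed the threshold (log2 fold change 0.85, SE 0.14, adjusted p = 0.0644 by edgeR). It was also lost without WT replicate 1 or 2 or TG replicate 1 or 3, and in a fit of the 6 ZT2 libraries alone. Unc5b was lost without WT replicate 2 and without the pair of TG libraries that stand apart, TG replicate 2 here and TG replicate 3 at ZT14. These were 2 of 17 tested guidance and ephrin genes. The list had a median of 0.338 with 13 of 17 above 0. The list holds both called genes and was chosen with earlier results of these data known, so its median is no separate support. The guidance receptor Robo1, at 7.76, 5.44 and 8.38 CPM in WT and 9.75, 17.6 and 12.8 in TG, did not pass (log2 fold change 0.89, SE 0.31, adjusted p = 0.58 by edgeR). The sinusoidal and vascular endothelium markers, 15 genes of a cell type that carries Unc5b, summed to 608 to 659 CPM in WT and 631 to 670 in TG, with a median log2 fold change of 0.00348.

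Unc13b, which primes vesicles for fusion with the plasma membrane, had 8.98, 7.22 and 7.50 CPM in WT and 20.8, 18.3 and 17.9 in TG. It rose 2.40-fold (log2 fold change 1.26, SE 0.16, adjusted p = 0.00766 by edgeR), and its exon reads gave nearly the same change (1.28, SE 0.14). Its call was lost in 1 of the fits that left out a library, that without WT replicate 2 (adjusted p = 0.0597 by edgeR). Its intron reads were also separated, at 21.3, 14.6 and 11.5 CPM in WT and 34.8, 33.5 and 34.4 in TG, though below the threshold (log2 fold change 1.11, SE 0.32, adjusted p = 0.265 by edgeR).

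Chka, choline kinase alpha, which takes the first step of phosphatidylcholine synthesis from choline, had 109, 119 and 127 CPM in WT and 174, 228 and 189 in TG. It rose 1.66-fold and lay right at the threshold (log2 fold change 0.73, SE 0.12, adjusted p = 0.0495 by edgeR). Exon reads gave 0.69 (SE 0.12, adjusted p = 0.0702 by edgeR) and intron reads 0.78 (SE 0.21, adjusted p = 0.233 by edgeR), and in both readouts the groups did not overlap. Leaving out any 1 of the 6 ZT2 libraries ended the call on total reads, as did a fit of these 6 alone. Among 16 tested genes of phosphatidylcholine synthesis Chka was the 1 that passed, the median of the list being 0.0538 with 14 of 16 above 0.

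Of the 11 called genes, 6 lie side by side on chromosome 19 (GRCm38), within 63.1 kb between positions 6906697 and 6969759, where 7 genes were tested. From left to right the order is Prdx5, Trmt112 and Esrra, all lower, then Kcnk4, then Gpr137, Bad and Plcb3, all higher. Chka is on the same chromosome but starts at 3851773, outside this run. Prdx5, a peroxidase of mitochondria and peroxisomes, had the most reads per length of the 11 genes. It fell from 226, 205 and 194 CPM to 110, 93.3 and 92.3 (log2 fold change -1.08, SE 0.12, adjusted p = 0.00215 by edgeR), from 94.1 to 45.5 on the authors' RPKM scale, which divides by length. Trmt112, the partner that several RNA and protein methyltransferases need for activity, had 28.8, 27.5 and 22.8 CPM in WT and 11.2, 12.1 and 12.2 in TG (log2 fold change -1.15, SE 0.11, adjusted p = 0.000815 by edgeR). Esrra, the nuclear receptor ERR alpha that works with PGC-1 on genes of oxidative metabolism, had 27.3, 31.3 and 32.4 CPM in WT and 13.3, 14.02 and 16.15 in TG (log2 fold change -1.06, SE 0.10, adjusted p = 0.000815 by edgeR). All 3 were at roughly equal fold, 2.09-fold to 2.22-fold lower.

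Gpr137, which encodes a multi-pass protein found in lysosomes, had 17.3, 16.6 and 19.8 CPM in WT and 63.5, 59.5 and 80.9 in TG, the greatest fold of the 11. Bad, a BH3-only protein that promotes apoptosis by binding BCL2 and BCL-XL, had 14.4, 16.3 and 15.8 CPM in WT and 35.1, 33.2 and 43.1 in TG (log2 fold change 1.26, SE 0.15, adjusted p = 0.0052 by edgeR). Plcb3, a phospholipase C that G protein-coupled receptors activate, had 23.6, 27.1 and 25.6 CPM in WT and 35.3, 35.7 and 35.3 in TG (log2 fold change 0.48, SE 0.07, adjusted p = 0.0322 by edgeR). Plcb3 had the smallest change of the 11, and its call was lost with the replicate block and without any 1 of the 6 ZT2 libraries. It was also lost in a fit of these 6 libraries alone. The tested gene in between, the potassium channel gene Kcnk4, was nearly silent at 0 to 0.190 CPM in WT and 0.220 to 0.692 in TG and did not pass (adjusted p = 0.538 by edgeR).

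No tested gene next to the run was called at ZT2 on either side. These neighbours were named after their values were seen. Ppp1r14b, Fkbp2, Vegfb, Dnajc4, Nudt22 and Trpt1, the next 6 tested genes to the right, had log2 fold changes from -0.09 to 0.30 (adjusted p = 0.64 to 0.943 by edgeR). To the left, Ccdc88b stood at 2.35, 2.60 and 4.19 CPM in WT and 1.04, 2.03 and 1.23 in TG (log2 fold change -1.08, SE 0.35, adjusted p = 0.536 by edgeR). Next to it Rps6ka4, a kinase of stress signalling, stood at 11.3, 11.6 and 8.32 CPM in WT and 23.0, 18.1 and 23.8 in TG (log2 fold change 1.06, SE 0.23, adjusted p = 0.214 by edgeR). Rps6ka4 was called at ZT14, where TG exceeded WT by 2.096 on the log2 scale (edgeR, SE 0.22, adjusted p = 0.00104). At ZT2 it passed without the filter, with DESeq2, without TG replicate 3 at ZT14 (adjusted p = 0.0307 by edgeR) and without both TG libraries that stand apart (adjusted p = 0.0255 by edgeR). The groups did not overlap in Ccdc88b and Rps6ka4, nor in Ppp1r14b, Fkbp2 and Nudt22 on the right.

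**Figure D2:**
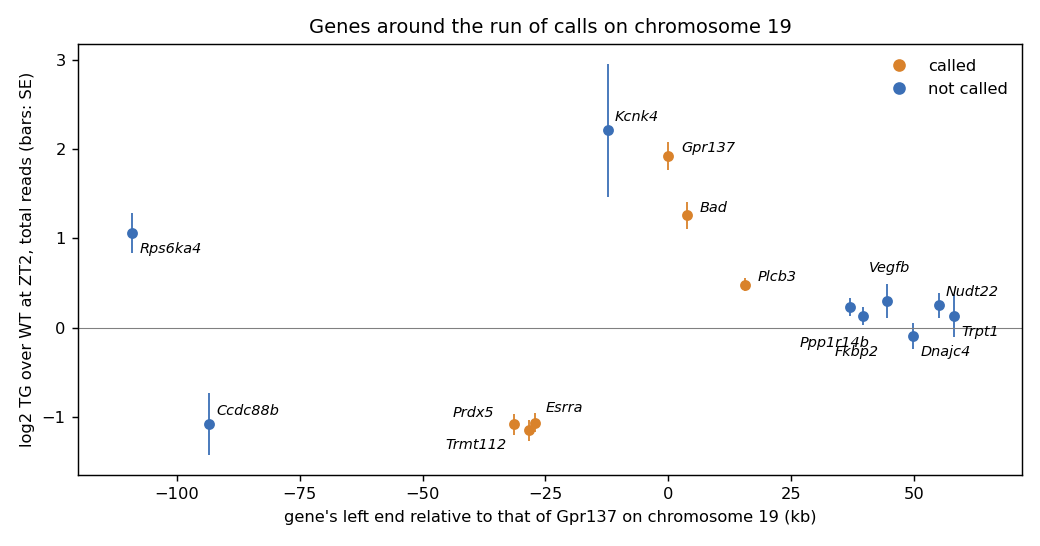
Log2 fold change (TG over WT at ZT2, total gene reads, bars are SE) of the tested genes around Gpr137 against the distance of each gene's left end from that of Gpr137 in kb. The 6 called genes run from Prdx5, Trmt112 and Esrra near -1.1 to Gpr137, Bad and Plcb3 above 0, and the 6 genes on the right lie between -0.09 and 0.30.

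Some of these genes share DNA. Gpr137 on the minus strand and Bad on the plus strand overlap by 590 bases, Prdx5 and Trmt112 by 409 and Trmt112 and Esrra by 73, each pair on opposite strands. The labels name a library kit that does not mark strand, so reads of the shared parts could count for either gene. The upstream DNA of Gpr137 and Bad is shown first because it is in part the same stretch read on opposite strands, and that of Ppard because it is the called gene with the strongest exon change away from chromosome 19. Unc13b is shown for an E-box, and Per3, a clock gene, as the case where D-box letters are present. Sequences are from RefSeq (GRCm38.p6), 5′ to 3′ toward the gene, from 250 bases before the start, without bases in annotated exons; for Gpr137 the start is that of its second window. Capitals mark the letters searched, TTATGTAA (or TTACATAA on the other strand) and TTACGTAA for a D-box and CACGTG for an E-box.
Gpr137 (chr19:6941508-6941757, minus strand): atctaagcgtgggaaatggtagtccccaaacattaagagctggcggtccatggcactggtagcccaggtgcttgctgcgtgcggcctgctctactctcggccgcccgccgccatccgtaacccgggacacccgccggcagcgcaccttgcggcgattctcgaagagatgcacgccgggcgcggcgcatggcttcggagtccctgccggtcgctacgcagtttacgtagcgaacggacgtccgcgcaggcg
Bad (chr19:6941611-6941860, plus strand): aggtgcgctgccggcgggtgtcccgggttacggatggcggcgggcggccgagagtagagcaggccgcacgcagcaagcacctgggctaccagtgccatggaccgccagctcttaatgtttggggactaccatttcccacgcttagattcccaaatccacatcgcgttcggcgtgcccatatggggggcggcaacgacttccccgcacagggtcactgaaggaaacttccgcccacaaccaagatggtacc
Ppard (chr17:28232504-28232699, plus strand): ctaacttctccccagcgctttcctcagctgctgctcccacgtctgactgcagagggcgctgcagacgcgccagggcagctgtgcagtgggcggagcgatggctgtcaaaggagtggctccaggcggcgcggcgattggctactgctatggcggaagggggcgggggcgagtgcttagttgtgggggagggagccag
Unc13b (chr4:43058703-43058952, plus strand): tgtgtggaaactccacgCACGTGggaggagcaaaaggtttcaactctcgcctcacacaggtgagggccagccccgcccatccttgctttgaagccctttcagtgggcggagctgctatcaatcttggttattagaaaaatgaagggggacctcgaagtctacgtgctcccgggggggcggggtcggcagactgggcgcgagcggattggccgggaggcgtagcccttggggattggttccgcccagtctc
Per3 (chr4:151044666-151044915, minus strand): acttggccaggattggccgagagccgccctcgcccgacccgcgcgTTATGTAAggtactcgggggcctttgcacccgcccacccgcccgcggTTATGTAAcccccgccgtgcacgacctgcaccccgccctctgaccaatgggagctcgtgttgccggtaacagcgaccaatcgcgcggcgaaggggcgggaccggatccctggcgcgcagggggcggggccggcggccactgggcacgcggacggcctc

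In windows from 250 bases before to 50 bases after the start, 1.06% of 32851 RefSeq windows held the D-box letters and 7.15% the E-box letters. Of the 10994 tested genes with a window, 0.964% held the D-box letters and 11.2% the E-box letters. All 11 called genes had a window, and 0 of them held the D-box letters. Unc13b, 1 of the 11 (9.09%), held an E-box, 233 bases before its start. Of the 18 clock and PAR bZIP genes with a window, 2 held the D-box letters, Per3 at 205 and 158 bases before its start and Timeless at 157. Neither was called. Per3 counted 0.611, 1.77 and 1.29 CPM in WT and 0.750, 0.220 and 0.802 in TG, with overlap (log2 fold change -0.999, SE 0.47, adjusted p = 0.663 by edgeR). Among the 16 D-box output genes with a window, 1 held the D-box letters (6.25%), Ces1g at 232 bases before its start. Sites farther than 250 bases from a start are not covered by these windows, so a window without the letters does not show that a gene lacks a D-box.

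On unique exon reads 11 of 12761 genes were called (0.0862%), 7 higher and 4 lower, and 9 of these were among the 11 of the total reads. Efna1 and Chka dropped out and Nat8 and Palld came in. Nat8, an N-acetyltransferase of the mercapturic acid route that male liver expresses more highly, had 12.9, 9.91 and 8.56 CPM in WT and 3.73, 3.99 and 4.81 in TG. It fell 2.50-fold (log2 fold change -1.32, SE 0.21, adjusted p = 0.0482 by edgeR), and on total reads it just missed (adjusted p = 0.0509). Palld, an actin-bundling protein of stress fibres, had 60.8, 69.0 and 68.5 CPM in WT and 86.9, 104 and 96.0 in TG (log2 fold change 0.54, SE 0.09, adjusted p = 0.0482 by edgeR). Its intron reads did not move with its exon reads, at 0.01 on the log2 scale (SE 0.25). Both exon calls lay at the threshold and were lost in most fits that left out a library, among them those without TG replicate 2, and with the replicate block.

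On unique intron reads 3 of 11383 genes were called (0.0264%), all higher in TG: Gpr137, Cyp2c55 and Npas2. An unadjusted p below 0.05 was reached by 1179 genes (10.4%), 592 higher and 587 lower. Unique intron reads numbered 1262799 to 1641379 per library. Of these, 6.85% to 13.0% fell in a single ribosomal RNA-like locus, Rn18s-rs5, which took 9.24% to 13.0% in WT and 6.85% to 9.65% in TG. Leaving the 5 genes or loci with the largest share of intron reads out of the fit gave the same 3 calls.

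Gpr137 had 43, 36 and 40 intron reads in WT and 406, 394 and 628 in TG, or 31.6, 31.0 and 27.1 CPM against 344, 281 and 441. That is 11.9-fold higher (log2 fold change 3.57, SE 0.26, adjusted p = 4.99e-06 by edgeR). Exon reads of the same gene rose 2.46-fold, from 18.8, 17.3 and 22.2 CPM to 45.5, 44.2 and 54.3 (log2 fold change 1.30, SE 0.15, adjusted p = 0.00161 by edgeR). Introns therefore held 12.8% ± 2.03 of its unique reads in WT and 41.9% ± 3.07 in TG (SD, n = 3 each). The exon change was 2.24 lower than the intron change on the log2 scale (SE 0.23, adjusted p = 0.00175 by edgeR). Gpr137 was the 1 gene of 9094 (0.011%) for which the difference between exon and intron change passed. It overlaps Bad on the other strand, as given above, and the part of that overlap in its intron reads was not tested.

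Npas2, a paralogue of CLOCK that pairs with BMAL1 to activate clock genes, had 30.2, 25.0 and 26.4 CPM of intron reads in WT and 80.6, 83.4 and 75.1 in TG. The groups are far apart, and intron reads rose 2.92-fold (log2 fold change 1.55, SE 0.19, adjusted p = 0.00239 by edgeR). On exon reads Npas2 stood at 9.08, 7.37 and 7.59 CPM in WT and 13.3, 14.2 and 13.2 in TG, without overlap but below the threshold (log2 fold change 0.76, SE 0.25, adjusted p = 0.496 by edgeR). Total reads gave 1.00 (SE 0.18, adjusted p = 0.103 by edgeR). Introns held 24.3% ± 2.39 of its unique reads in WT and 36.6% ± 1.35 in TG (SD, n = 3 each).

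Cyp2c55, a cytochrome P450 that metabolises arachidonic acid and drugs, had 15.5, 18.9 and 16.9 CPM of intron reads in WT and 49.2, 68.4 and 69.5 in TG. Its intron reads rose 3.66-fold (log2 fold change 1.87, SE 0.22, adjusted p = 0.00174 by edgeR). Its exon reads ranged from 3.11 to 14.3 CPM in WT and from 14.6 to 27.7 in TG, and WT replicate 3 was far below the other libraries (log2 fold change 0.98, SE 0.40, adjusted p = 0.61 by edgeR).

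**Figure D3:**
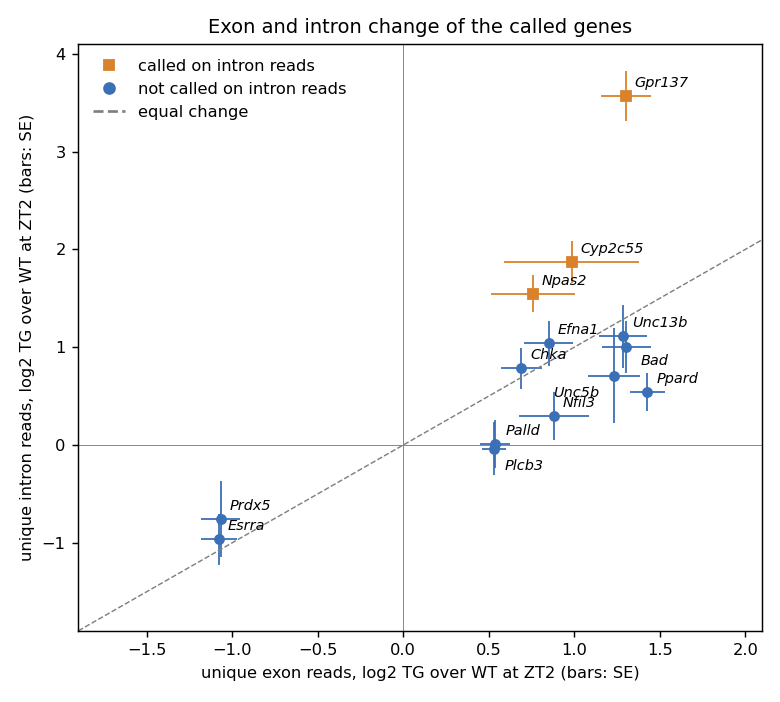
Log2 fold change (TG over WT at ZT2) on unique exon reads against unique intron reads for the called genes tested in both and Nfil3, bars are SE and the dashed line marks equal change. Gpr137 sits far above the line at 1.30 and 3.57, Ppard below it at 1.43 and 0.54, and Esrra on it near -1.

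Of the 16 tested genes of the core clock, 0 were called on total or exon reads and Npas2 was called on intron reads. Among the activators, Arntl (BMAL1) had 32.8, 26.5 and 29.3 CPM in WT and 38.4, 42.7 and 40.0 in TG, without overlap (log2 fold change 0.45, SE 0.24, adjusted p = 0.706 by edgeR). Rora and Clock overlapped between the groups, at 0.20 and -0.07. Among the 11 repressors, Bhlhe41 (DEC2) had 1.22, 1.58 and 0.724 CPM in WT and 0.346, 0.275 and 0.267 in TG (log2 fold change -1.96, SE 0.47, adjusted p = 0.33 by edgeR). Cry1 had 14.9, 18.6 and 16.7 CPM in WT and 26.2, 27.9 and 18.2 in TG, where TG replicate 3 fell within the WT range (log2 fold change 0.53, SE 0.17, adjusted p = 0.536 by edgeR). Nr1d2 and Bhlhe40 stood at -0.38 and -0.91, Per1, Per2 and Per3 at -0.75, 0.03 and -0.999, and Nr1d1, Cry2, Timeless and Ciart between -0.10 and 0.20. The WT libraries themselves were far apart for several of these: Per1 counted 3.90, 15.7 and 1.71 CPM and Bhlhe40 37.4, 101 and 23.4.

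The PAR bZIP genes, which bind the same element as E4BP4 and activate from it, did not pass. Dbp had 1.27, 11.7 and 6.93 CPM in WT and 2.60, 1.87 and 2.14 in TG (log2 fold change -1.55, SE 0.56, adjusted p = 0.603 by edgeR). WT replicate 1 lay below every TG library, against the direction of the fitted change. Tef stood at 34.3, 77.7 and 56.5 CPM in WT and 42.2, 40.3 and 44.0 in TG (log2 fold change -0.41, SE 0.21, adjusted p = 0.69 by edgeR), and Hlf at -0.02. WT replicate 1 was the lowest WT library for Dbp, Tef and Hlf alike. Without it, Dbp passed (adjusted p = 0.0455 by edgeR), but leaving out the WT library that lay below TG widens the difference by itself.

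Of 17 tested D-box output genes of the detoxification and metabolic arm, 0 were called on any readout, with a median of 0.0872 on total reads. The summed level of the list was 7139.2, 7628.2 and 2753.1 CPM in WT and 6134.8, 6120.2 and 6114.8 in TG, WT replicate 3 being far below the other libraries. Alas1, the rate-limiting enzyme of heme synthesis, had 360, 104 and 137 CPM of total reads in WT and 125, 63.2 and 107 in TG (log2 fold change -1.03, SE 0.45, adjusted p = 0.64 by edgeR). Its intron reads stood at 1494, 668 and 299 CPM in WT and 111, 221 and 85.6 in TG, without overlap (log2 fold change -2.56, SE 0.60, adjusted p = 0.2 by edgeR). The WT values lie far apart there, with replicate 1 the highest. Upp2, a uridine phosphorylase, had 98.9, 168 and 86.6 CPM in WT and 148, 210 and 163 in TG (log2 fold change 0.56, SE 0.26, adjusted p = 0.658 by edgeR).

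Of the drug-metabolising P450 genes and their regulators, 0 of 22 were called on total reads, and the median log2 fold change was 0.0345. The summed level of the list was 10038, 10600 and 4537.5 CPM in WT and 9059.8, 8793.6 and 9603.8 in TG, WT replicate 3 being far below the other libraries. On intron reads Cyp2c55 was the 1 of 17 that passed, the median was 0.31, and 6 had an unadjusted p below 0.05 on the higher side and 1, Alas1, on the lower side. That median was 0.164 without WT replicate 1, 0.718 without WT replicate 2 and 0.154 without TG replicate 3. For no gene of the list did the difference between exon and intron change pass. Ces2a, a liver carboxylesterase, had 25.8, 58.6 and 49.4 CPM of intron reads in WT and 136, 150 and 160 in TG (log2 fold change 1.75, SE 0.32, adjusted p = 0.0967 by edgeR). Cyp3a25 had 1752, 5550 and 2214 CPM of intron reads in WT and 7789, 6663 and 10860 in TG (log2 fold change 1.41, SE 0.39, adjusted p = 0.245 by edgeR). WT replicate 2 stood above the other WT libraries and nearest to TG in Cyp3a25. Without it Cyp3a25 passed on intron reads, but leaving it out widens the difference by itself.

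Of the 27 PPAR receptors and targets above, 25 could be tested on intron reads, where 0 passed and the median was 0.217. It was 0.0736 without WT replicate 1, 0.456 without WT replicate 3 and 0.393 without TG replicate 2. Pdk4 and the fatty acid hydroxylase genes Cyp4a10, Cyp4a14 and Cyp4a31 had the highest log2 fold changes. Those of Pdk4 and Cyp4a31 rest on few reads. Pdk4 had 4, 1 and 3 intron reads in WT and 10, 4 and 34 in TG, and Cyp4a31 had 1, 6 and 11 against 21, 19 and 42. Cyp4a10 had 33.8, 37.9 and 42.0 CPM of intron reads in WT and 93.3, 62.7 and 354 in TG (log2 fold change 2.17, SE 0.48, adjusted p = 0.2 by edgeR), while its exon reads had a log2 fold change of -0.19. TG replicate 3 was far above the other TG libraries. The Cyp4a genes are close copies of each other, so how their reads were shared between them is uncertain. Cidec, a lipid droplet protein, was lower on intron reads, at 84.6, 87.9 and 63.6 CPM in WT and 39.9, 39.2 and 40.0 in TG (log2 fold change -0.98, SE 0.19, adjusted p = 0.123 by edgeR). Its exon reads stood at 0.08. Introns took 89.1% of its unique reads in WT, and total reads gave -0.78 (SE 0.19).

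Phosphatidylcholine synthesis had a median of 0.402 on intron reads against 0.0312 on exon reads. Of 15 genes tested on intron reads 5 had an unadjusted p below 0.05, all higher, and 0 passed. The intron median was 0.265 without WT replicate 1. Lpcat3, which places polyunsaturated chains into phosphatidylcholine, had 135, 149 and 182 CPM of intron reads in WT and 256, 221 and 286 in TG (log2 fold change 0.71, SE 0.18, adjusted p = 0.205 by edgeR). Its exon reads stood at 0.12.

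Of the cytosolic heat shock genes, 17 could be tested on intron reads. Of these 16 were below 0, 12 of them with an unadjusted p below 0.05, and the median log2 fold change was -0.975. On exon reads the median of the 21 tested was 0.116 with 16 above 0, and 0 passed on either readout, nor for the difference between exon and intron change. Stip1, a co-chaperone that links HSP70 and HSP90, had 95.7, 72.3 and 37.9 CPM of intron reads in WT and 24.6, 17.1 and 28.8 in TG (log2 fold change -1.54, SE 0.33, adjusted p = 0.182 by edgeR). Dnaja1 had 141, 153 and 66.4 against 48.3, 44.2 and 61.1, and Ahsa1 34.6, 37.0 and 10.2 against 9.33, 9.27 and 4.21. Hsph1 had 89.8, 68.9 and 4.74 in WT and 5.94, 7.84 and 10.5 in TG. In all 4 the high values were those of WT replicates 1 and 2, and WT replicate 3 lay close to the TG libraries. All 4 passed without WT replicate 3 (adjusted p = 0.000391 to 0.0145 by edgeR), but leaving out the WT library nearest to TG widens the difference by itself. Relative to the WT mean, the mean of the list on intron reads was 0.58, 0.41 and -0.99 in WT and -1.15, -0.90 and -1.02 in TG, on the scale of log2(CPM + 0.5). WT replicate 3 thus lay within the range of the TG libraries. The median was -0.722 without WT replicate 1, -0.819 without WT replicate 2 and -1.39 without WT replicate 3.

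Intron reads of 2 endoplasmic reticulum chaperone genes were also highest in WT replicates 1 and 2. Calr had 67.7, 49.1 and 30.5 CPM in WT and 25.4, 20.7 and 18.9 in TG, and Pdia3 75.8, 55.1 and 27.1 in WT and 26.3, 22.1 and 22.5 in TG (adjusted p = 0.263 and 0.373 by edgeR). Pfkfb3, which makes the activator of glycolysis fructose 2,6-bisphosphate, had 73.6, 81.0 and 23.0 CPM of intron reads in WT and 16.1, 15.0 and 10.5 in TG (log2 fold change -2.08, SE 0.51, adjusted p = 0.2 by edgeR). Without WT replicate 3 it passed on intron reads (adjusted p = 0.0261 by edgeR), as did Alas1 (adjusted p = 0.0331) and Cidec (adjusted p = 0.0261). WT replicate 3 was the WT library nearest to TG in each of these genes, so leaving it out widens the difference by itself.

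**Figure D4:**
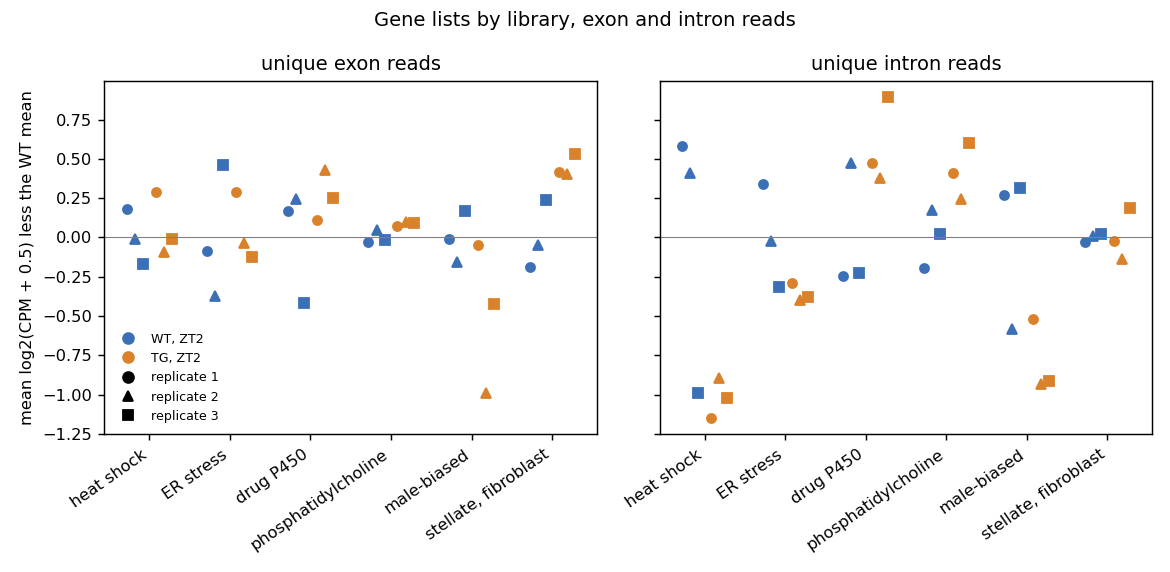
Mean of log2(CPM + 0.5) of 6 gene lists in each library, less the mean of the 3 WT libraries, on unique exon reads (left) and unique intron reads (right), with a symbol for each replicate. On intron reads the heat shock list lies at 0.58 and 0.41 in WT replicates 1 and 2 and between -1.15 and -0.90 in WT replicate 3 and all TG libraries.

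Bad was the 1 gene called of 15 tested members of the BCL2 family. Bbc3 (PUMA), another BH3-only gene, had 6.77, 7.98 and 14.4 CPM in WT and 18.1, 20.3 and 26.1 in TG (log2 fold change 1.15, SE 0.24, adjusted p = 0.179 by edgeR), and its intron reads stood at 1.13. On total reads Bbc3 was called without the filter on low counts, with DESeq2, with the replicate block and without WT replicate 3, the WT library nearest to TG. Bcl2, which opposes both, had 1.505, 1.84 and 2.12 CPM in WT and 2.48, 2.91 and 3.05 in TG (log2 fold change 0.63, SE 0.27, adjusted p = 0.639 by edgeR). The median of the family was 0.0306.

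Of 27 tested oxidative phosphorylation genes and ESRRA partners, Esrra was the 1 that passed, and the median was -0.00204. Of 22 antioxidant enzymes Prdx5 was the 1 that passed, at a median of 0.0227. Of 11 methyltransferase genes listed with Trmt112, Trmt112 alone passed, and Mettl5, an rRNA methyltransferase that binds TRMT112, had 13.4, 15.7 and 14.6 CPM in WT and 12.4, 10.6 and 13.1 in TG (log2 fold change -0.27, SE 0.12, adjusted p = 0.639 by edgeR).

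In the lipid synthesis lists 0 genes were called. Fatty acid and triglyceride synthesis had a median of 0.257 on total reads with 19 of 25 above 0 and 6 at an unadjusted p below 0.05. The median was 0.137 without TG replicate 3. Srebf1, the master regulator of fatty acid synthesis, had 161, 206 and 188 CPM in WT and 206, 384 and 352 in TG (log2 fold change 0.77, SE 0.20, adjusted p = 0.399 by edgeR). Scd2, a desaturase, had 5.17, 5.63 and 6.05 CPM in WT and 8.31, 10.99 and 8.61 in TG without overlap (log2 fold change 0.73, SE 0.18, adjusted p = 0.343 by edgeR). On intron reads the same list had a median of -0.14. Cholesterol synthesis had 24 of 25 above 0 at a small median of 0.149 on total reads, and 10 of 24 at a median of -0.0874 on intron reads. Pmvk, a kinase of the mevalonate pathway, stood at 28.5, 33.4 and 23.2 CPM in WT and 36.8, 35.4 and 49.3 in TG (log2 fold change 0.52, SE 0.16, adjusted p = 0.502 by edgeR).

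Markers of stellate cells and fibroblasts were above 0 in 19 of 19 tested, with a median of 0.445, 9 at an unadjusted p below 0.05 and 0 called. On intron reads 6 of 11 were above 0, with a median of 0.0248. Their summed level was 390, 401 and 488 CPM in WT and 564, 539 and 634 in TG. Bgn, a matrix proteoglycan, had 57.3, 60.1 and 62.3 CPM in WT and 86.4, 74.2 and 94.5 in TG (log2 fold change 0.51, SE 0.10, adjusted p = 0.179 by edgeR), and Vim and Dcn stood at 0.49 and 0.40. Cholangiocyte markers were above 0 in 11 of 12 with a median of 0.421, and 0 were called. Their summed level was 73.5, 74.4 and 135.7 CPM in WT and 135.8, 98.8 and 111.7 in TG, so the groups overlapped through WT replicate 3. Sox9, a transcription factor of bile duct cells, stood at 9.55, 9.43 and 11.9 CPM in WT and 16.7, 17.8 and 17.2 in TG (log2 fold change 0.74, SE 0.18, adjusted p = 0.333 by edgeR). In whole liver, more cells of a type and more RNA per cell cannot be told apart. Hepatocyte markers summed to 76478 to 81594 CPM in WT and 76830 to 89346 in TG, with a median of -0.025, and the 15 Kupffer cell markers had a median of -0.0906. The part of these markers in the calls of Unc5b, Efna1 and Palld was not tested.

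On total reads, genes with sex-biased liver expression stood farthest from WT in TG replicate 2. The 20 tested female-biased genes had a median of 0.453, 0 called, and the list mean relative to WT was 0.15, 1.21 and 0.61 in TG replicates 1, 2 and 3 on total reads. The 33 male-biased genes had a median of -0.323, and their list mean was -0.08, -0.94 and -0.47 in the same order. On intron reads the male-biased list had 3 of 28 above 0 and a median of -0.603, with list means of -0.52, -0.93 and -0.91, and the female-biased list means were 0.59, 0.89 and 0.94. Abcd2, a peroxisomal fatty acid transporter, had 4.56, 4.24 and 3.05 CPM in WT and 6.41, 20.8 and 15.1 in TG (log2 fold change 1.84, SE 0.43, adjusted p = 0.31 by edgeR). The female-biased median on total reads was 0.274 without TG replicate 2 and 0.692 without TG replicate 1. The male-biased median was -0.225 without TG replicate 2 and -0.525 without TG replicate 1.

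At ZT14 the same contrast called 13 genes of 15244 (0.0853%), and 7 of the 11 genes called at ZT2 were among them. The ZT14 groups share no libraries with those at ZT2. The 6 genes of the chromosome 19 run and Unc13b made up the 7. Ppard, Unc5b, Efna1 and Chka were called at ZT2 and not at ZT14, where they stood at -0.28, 0.05, 0.13 and -0.00. The difference between the changes at the 2 times was tested for all genes, and Ppard was the 1 that passed on total reads (0.00656%). It counted 18.1, 22.1 and 20.4 CPM in WT and 16.6, 16.7 and 16.7 in TG at ZT14, so that the TG level was above WT at ZT2 and a little below it at ZT14. The ZT2 change exceeded the ZT14 change by 1.46 on the log2 scale (SE 0.16, adjusted p = 0.0109 by edgeR). For Unc5b, Efna1 and Chka the same difference was 1.12, 0.76 and 0.74 and did not pass (adjusted p = 0.283, 0.48 and 0.48 by edgeR).

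On exon reads Ppard was again the 1 gene (0.00784%) whose change differed between the times, by 1.62 (SE 0.14, adjusted p = 0.000786 by edgeR). On intron reads 2 genes did (0.0176%), Npas2 and the predicted gene Gm26608. Npas2 introns at ZT14 stood at 3.86, 2.57 and 5.33 CPM in WT and 0.592, 0.562 and 0.517 in TG, so TG was above WT at ZT2 and below it at ZT14. The ZT14 change of -2.64 on the log2 scale did not pass alone (SE 0.53, adjusted p = 0.196 by edgeR). The difference between the times was 4.18 (SE 0.54, adjusted p = 0.00858 by edgeR). On total reads it was 3.43 (SE 0.50) and missed the threshold (adjusted p = 0.0519 by edgeR), and on exon reads it was 2.26 (SE 1.01, adjusted p = 0.763 by edgeR). Each of these ZT14 intron values rests on few reads.

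**Figure D5:**
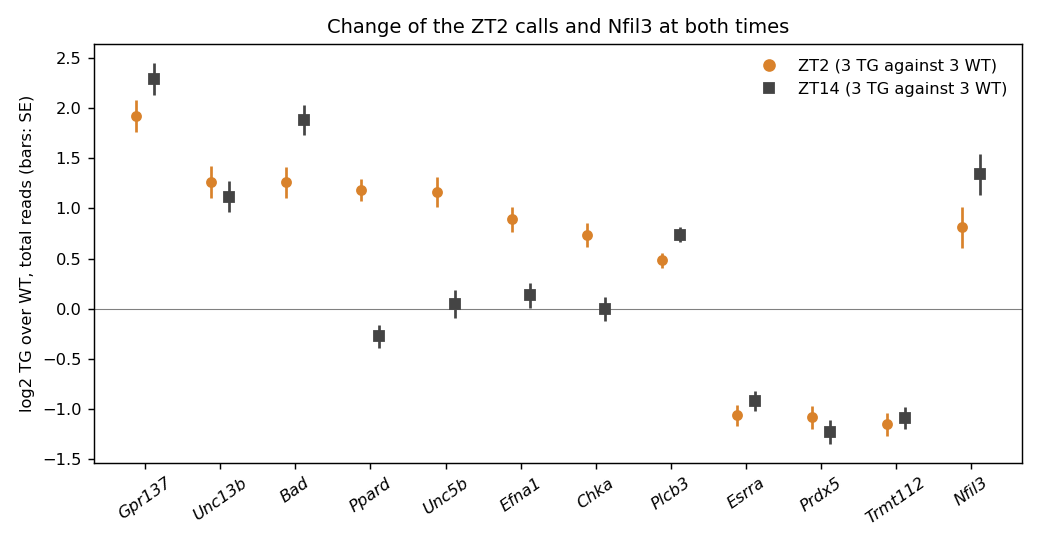
Log2 fold change (TG over WT, total gene reads, bars are SE) of the 11 genes called at ZT2 and Nfil3, at ZT2 and at ZT14, from 3 TG against 3 WT libraries each. Gpr137, Bad, Unc13b, Plcb3, Esrra, Prdx5 and Trmt112 keep their side at both times, and Ppard goes from 1.18 to -0.28.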

How the data were processed

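Polyadenylated liver RNA of 3 TG and 3 WT samples at ZT2 was compared. The deposited tables give read counts per gene (total, unique exon, unique intron) and RPKM made by the authors, per the file headers. Builds mm10 and GRCm38 are named in the submitters' processing notes; the aligner and counter: not given in the sources used here. Counts were fitted over all 12 libraries in 4 groups with edgeR 4.0.16 (filterByExpr, TMM, quasi-likelihood test, Benjamini-Hochberg threshold 0.05), separately for each readout. RPKM served only for levels per length. CPM uses the TMM-scaled library sizes of the same readout. Before that scaling, 3 total gene reads equal 0.133 to 0.187 per 1000000 total gene reads. The floor is higher on intron reads, where 21 reads of Cyp2c55 in WT replicate 1 gave 15.5 CPM. Deviations of same-numbered TG and WT samples from their group means, over the tested genes, correlated at 0.197, -0.0271 and 0.0379, so numbers were not taken as pairs. Named genes are those called in any readout, the clock and PAR bZIP lists (1 member is not reported here), and list genes with the smallest p-values. The members and lists were chosen with earlier results of these data known. Alternatives covered scaling, filters, DESeq2 1.42.0, limma-voom (limma 3.58.1), the replicate block and left-out libraries. The fits were tested on simulated data.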

Additional observations from a re-analysis of the deposited data

Results flagged for a closer look

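The change between TG and WT differed between ZT2 and ZT14 in 4 results, each by a test of the difference itself (edgeR's quasi-likelihood test, adjusted over all genes). For Ppard the ZT2 change exceeded the ZT14 change by 1.46 on the log2 scale on total reads (adjusted p = 0.0109) and by 1.62 on exon reads (adjusted p = 0.000786). The exon result passed in all 20 alternatives run, with differences from 1.54 to 1.73. The result on total reads was lost without TG replicate 2 at ZT2, without WT replicate 3 or TG replicate 2 at ZT14, and without both TG libraries that stand apart (adjusted p up to 0.0672).

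For Npas2 introns the difference was 4.18 (adjusted p = 0.00858). It was lost with limma-voom, without WT replicate 3 or TG replicate 1 at ZT14, and without both TG libraries that stand apart (adjusted p up to 0.117).

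Gm26608, named because its difference passed, is a predicted gene on the minus strand at chr5:28019465-28071105. It had 96.4, 143 and 168 CPM of intron reads in WT and 343, 294 and 460 in TG at ZT2. At ZT14 it had 465, 496 and 580 CPM in WT and 200, 298 and 252 in TG. The difference between the times was 2.47 on the log2 scale (SE 0.34, adjusted p = 0.0154 by edgeR), while neither the ZT2 change of 1.43 nor the ZT14 change of -1.04 passed alone (adjusted p = 0.0579 and 0.572 by edgeR). This difference was lost without both TG libraries that stand apart and in at least 1 fit that left out a library, where 0 genes passed on intron reads.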

How the results depend on the processing

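Without the filter on low counts, 43 genes were called on total reads, 17 on exon reads, 347 on intron reads, 136 for the exon less the intron change, and 41 at ZT14; for the difference between the times, 11, 2 and 122 were called on total, exon and intron reads. With DESeq2 the counts were 56, 53 and 44 on total, exon and intron reads, 51 at ZT14, and 22, 12 and 6 for the difference between the times. A minimum of 1 CPM in 3 samples gave 6 intron calls. For the difference between the times, RLE size factors gave 4 calls on total reads, limma-voom 1 on intron reads, and an adjusted p below 0.01 left 0 on total and 1 on intron reads. Without both TG libraries that stand apart, 5 intron calls and 3 for the exon less the intron change were made, and 2, 4 and 0 for the difference between the times on total, exon and intron reads. The replicate block, where numbers do not pair the samples, gave 12 calls on total, 11 on exon and 4 on intron reads, 14 at ZT14, and 2, 2 and 2 for the difference between the times.

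Leaving out 1 library gave 7 to 22 calls on total reads, 8 to 17 on exon reads, 3 to 58 on intron reads, 1 to 29 for the exon less the intron change and 10 to 17 at ZT14, the upper values at ZT2 all without WT replicate 3 and the 7 without WT replicate 2. For the difference between the times it gave 0 to 3, 1 to 3 and 0 to 4 calls. Of 72 named genes on total reads, 66 kept their direction in every alternative. The other 6 had small changes or wide spread, and the causes were not tested. Leaving out 1 library gave log2 fold changes of -0.019 to 0.34 for Cry2, -1.24 to 0.53 for Per1, -0.17 to 0.33 for Per2, -0.36 to 0.94 for Ciart, -0.33 to 0.24 for Nr1d1 and -0.16 to 0.13 for Hlf, and at ZT14 -0.063 to 0.14 for Unc5b and -0.063 to 0.10 for Chka. Without both TG libraries that stand apart, Ciart stood at -0.036, Nr1d1 at 0.24 and Hlf at 0.066. With library size alone Nr1d1 stood at 0.0099, Hlf at 0.015 and Chka at ZT14 at 0.014. With limma-voom Nr1d1 stood at 0.031 and Hlf at 0.000786, and with the replicate block Nr1d1 at 0.011. Library size alone moved the median over all genes on intron reads from -0.00768 to 0.113.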

Other observations

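Acute phase genes of the liver, secreted proteins that follow inflammation, were below 0 in 25 of 30 tested on total reads, at a median of -0.291 (log2 fold change), and 0 were called. Their summed level was 37465, 26288 and 34282 CPM in WT and 30851, 33272 and 24034 in TG, so the groups overlapped. Periportal genes were above 0 in 14 of 16 with a median of 0.232, and pericentral genes in 3 of 15 with a median of -0.191, again with 0 called in either list. The summed periportal level was 54459, 56680 and 56348 CPM in WT and 60366, 71508 and 55679 in TG, TG replicate 2 being the highest.

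Bile acid synthesis and transport genes had a median of -0.0638 over 19 tested, and interferon response genes 0.0259 over 30, with 0 called in both. B and T cell markers were above 0 in 9 of 10 with a median of 0.588, and their summed level was 62.7, 76.1 and 88.4 CPM in WT and 108, 151 and 69.6 in TG, with overlap.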
